A study of Mus musculus with 13 samples.

Results

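The 10 immediate early genes Fos, Fosb, Jun, Junb, Egr1, Egr2, Egr4, Arc, Dusp1 and Klf4 were taken by symbol from 2 tables of gene counts in mouse brain, one of 23238 symbols in tissue and one of 24542 symbols in cultured glia. All 10 were in both tables, and rows that shared a symbol were summed. The tissue was hippocampus of 3xTg mice, which carry human mutant APP and tau transgenes under the neuronal Thy1 promoter. Of 7 tissue libraries, 4 came from mice given adeno-associated virus 9 (AAV9) that delivers the transcription factors Nurr1, encoded by Nr4a2, and Foxa2 (N+F), and 3 from mice given control AAV9. The labels enter amyloid beta as the treatment of all 7 and give no age. The cultures were glia of ICR pups at postnatal day 1, hippocampal and cortical, with 1 library in each of 6 groups. In each region these were N+F lentivirus with amyloid beta, control lentivirus with amyloid beta (amyloid beta control), and control lentivirus without amyloid beta (labelled untreated).

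Immediate early genes are transcribed within minutes of synaptic activity, calcium entry or growth factor signals, with no need for new protein. Kinases such as ERK and the calcium/calmodulin kinases act on transcription factors already bound at their promoters, among them CREB at cyclic AMP response elements and SRF with its partners at CArG boxes. In the hippocampus Fos, Egr1 and Arc are widely used as marks of recently active neurons, while in glia Fos, Jun and Klf4 also answer to serum, injury and stress.

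Sequence before the transcription start is shown for 5 members picked as examples, so that the letters of the cyclic AMP response element can be seen where they occur. RefSeq sequence on GRCm38.p6 was matched for 8 of the 10 members; Arc and Egr1 are named only. Each line gives the 150 bases before the start in the direction of transcription, 5′ to 3′, with Fos at chr12:85473740-85473889 on the plus strand, and on the minus strand Junb at chr8:84978749-84978898, Jun at chr4:95052223-95052372, Egr4 at chr6:85513590-85513739 and Dusp1 at chr17:26508473-26508622. Capitals mark TGACG, the core of the cyclic AMP response element, or its reverse complement CGTCA, the full element TGACGTCA in Dusp1, the variant TGACATCA in Jun, and the TATA box TATAAA in Fos.
Fos: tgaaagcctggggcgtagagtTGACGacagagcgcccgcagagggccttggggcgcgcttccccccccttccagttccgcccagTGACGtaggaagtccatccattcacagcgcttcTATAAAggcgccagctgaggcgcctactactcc
Junb: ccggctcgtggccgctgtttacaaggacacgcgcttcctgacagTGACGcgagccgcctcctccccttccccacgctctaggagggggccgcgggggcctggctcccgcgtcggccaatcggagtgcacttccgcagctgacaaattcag
Jun: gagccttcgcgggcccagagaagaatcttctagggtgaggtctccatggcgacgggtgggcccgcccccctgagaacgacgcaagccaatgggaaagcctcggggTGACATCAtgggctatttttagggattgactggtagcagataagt
Egr4: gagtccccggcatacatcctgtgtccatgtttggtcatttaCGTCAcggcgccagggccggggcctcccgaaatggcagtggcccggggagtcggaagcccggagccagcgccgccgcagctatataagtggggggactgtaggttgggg
Dusp1: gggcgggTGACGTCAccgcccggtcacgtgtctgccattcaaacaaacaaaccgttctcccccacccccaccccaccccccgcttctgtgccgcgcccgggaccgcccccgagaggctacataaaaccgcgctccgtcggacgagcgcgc
With both strands of 250 bases before the start searched, TGACG was found for 7 of the 8 members, all but Jun, against 19.8% of 27025 genes. The full element TGACGTCA, whose letters include TGACG, was found only in Dusp1 among these 8 members, against 1.77% of genes. TGACATCA was found in Jun, against 3.41% of genes, and the AP-1 motif TGANTCA in 0 of 8, against 7.82%. TATAAA was found in Fos, against 14.3% of genes, and a CArG box in Egr2, which has 5 starts in the table, against 1.62% of genes. These are matches of letters in a window and were not tested for binding.

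Tissue libraries held 10194437 to 25139406 counts, and culture libraries 52189025 to 78273121. Tissue levels are given in CPM, counts relative to a library total scaled by the trimmed mean of M values (TMM), and culture levels in CPM of the library total. Whether tissue replicates came from separate animals is not given in the labels, so p-values measure only the spread between these libraries. Transcript of the delivered genes did not separate the tissue groups: Nr4a2 had 27.2, 22.01, 25.2 and 33.5 CPM in N+F libraries and 30.1, 19.5 and 44.8 CPM in controls (log2 fold change -0.22 ± 0.24 SE, edgeR adjusted p = 0.872), and Foxa2 had 26, 5, 1 and 6 counts in N+F libraries and 5, 1 and 1 in controls. The Foxa2 counts are not scaled for depth. Control 1, with 5, was the deepest library at 25139406 counts, and N+F libraries held 10194437 to 12260884. Since these transcripts did not separate the groups, the tissue groups are called as labelled. Nr4a2 is itself known as an immediate early gene. In culture both were higher with N+F than in the amyloid beta control, Nr4a2 with 488 against 3.35 CPM in hippocampal and 36.9 against 5.14 CPM in cortical glia, and Foxa2 with 140 and 13.5 CPM against 0 counts.

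The tissue comparison asked whether N+F delivery changed transcripts of the 3xTg hippocampus. Most members had higher values with N+F: 8 of 10 log2 fold changes were positive and their median was 0.43, against 49.2% of all genes and a median of -0.0044 over all genes. The members were chosen with earlier results of these data known, and members that vary together over libraries are not separate observations. Their counts beside those of all genes, here and below, are a description and not a test. After adjustment over 15523 genes, edgeR's quasi-likelihood test called 0 of the 10 members, where it called 0.110% of all genes (17, of which 1 was higher, 0.00644%, and 16 lower, 0.103%). At an unadjusted p under 0.05 stood Fos, Jun, Egr1 and Egr4, 4 of 10 members against 8.46% of all genes. DESeq2 called 1 member, Fos, where it called 0.948% of 14346 genes.

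Fos and Fosb encode the partners of Jun proteins in the AP-1 transcription factor. Fos had 29.1, 22.3, 27.2 and 33.0 CPM in N+F libraries 1 to 4, against 12.6, 19.1 and 16.8 CPM in control libraries 1 to 3. All 4 N+F libraries lay above all 3 controls. The means were 27.9 ± 4.47 CPM with N+F and 16.2 ± 3.29 CPM in controls (SD, n = 4 and n = 3), a log2 fold change of 0.80 ± 0.18 (SE). This had an unadjusted p of 0.00102 and an adjusted p of 0.221 in edgeR, and an adjusted p of 0.0239 in DESeq2. Fosb, whose splice form DeltaFosB is long-lived, had 5.92, 4.65, 8.99 and 7.84 CPM with N+F and 2.97, 2.92 and 7.03 CPM in controls. Control 3 lay among the N+F libraries, and the log2 fold change of 0.69 ± 0.36 had an edgeR adjusted p of 0.662.

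Jun, the AP-1 subunit that is also a main target of the JNK stress kinases, went the other way. Jun had 19.2, 22.5, 25.8 and 32.3 CPM in N+F libraries 1 to 4, against 36.7, 43.9 and 37.3 CPM in controls 1 to 3. Every N+F library lay below every control. The means were 24.9 ± 5.61 CPM with N+F and 39.3 ± 3.96 CPM in controls (SD, n = 4 and n = 3), a log2 fold change of -0.65 ± 0.17. The unadjusted p was 0.00273, and the adjusted p was 0.272 in edgeR and 0.0664 in DESeq2. Junb, a subunit that can oppose Jun at some targets, had 49.9 to 65.6 CPM with N+F and 35.7 to 61.6 CPM in controls. These groups overlapped, with a log2 fold change of 0.38 ± 0.19 and an edgeR adjusted p of 0.645.

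Fos and Jun were the only members whose tissue groups did not overlap, 2 of 10 members against 8.11% of all genes (3.92% higher with N+F and 4.19% lower). Their ratio within a library does not depend on library scaling. Fos had 1.52, 0.992, 1.05 and 1.02 counts per count of Jun in N+F libraries 1 to 4, against 0.344, 0.436 and 0.449 in controls 1 to 3. Both groups were narrow apart from N+F 1, which was the highest, and they did not overlap. The ratio was chosen after the values of both genes were seen and is given without a test. The plot of Fos per Jun shows it for all 13 libraries.

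**Figure D1:**
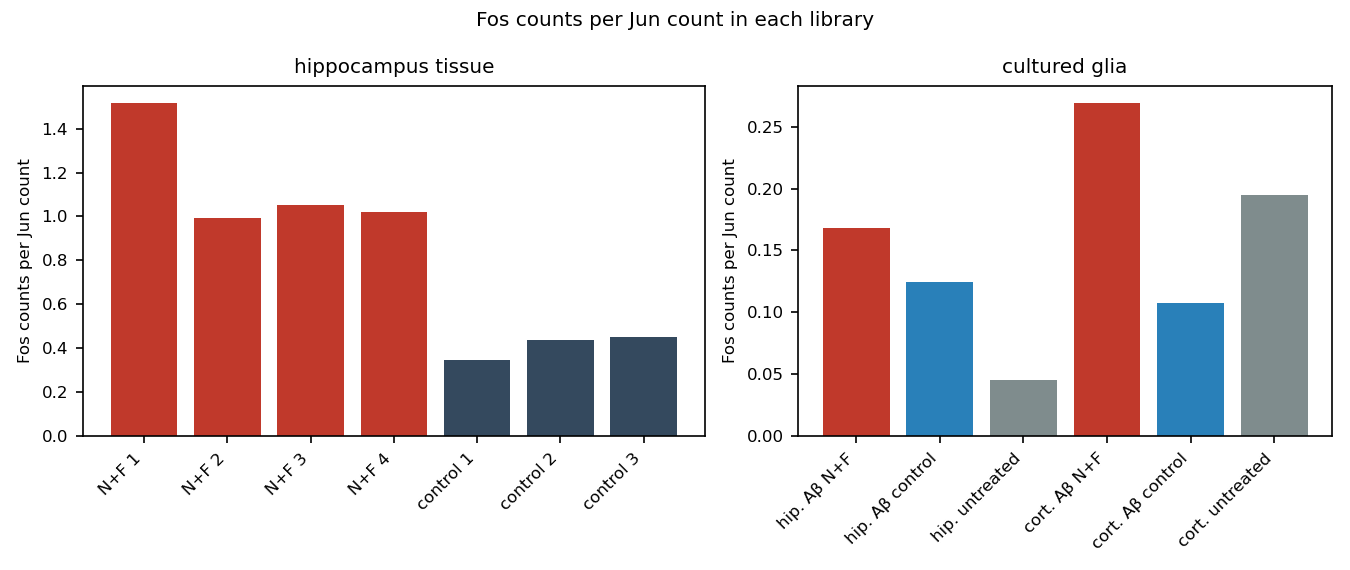
Counts of Fos per count of Jun in each library, with tissue libraries (N+F, then control) beside the single culture libraries of each region. Tissue N+F libraries lie at 0.992 to 1.52 and tissue controls at 0.344 to 0.449, while the culture libraries lie at 0.0449 to 0.269.

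The Egr genes encode zinc finger factors that bind GC-rich sites in promoters of synaptic and metabolic genes. Egr4 had 24.4, 16.4, 28.2 and 19.5 CPM with N+F, against 8.05, 10.5 and 17.1 CPM in controls. Only control 3 reached the N+F range, just above N+F 2. The log2 fold change was 0.91 ± 0.26, the largest of the 10 in this fit, with an unadjusted p of 0.00468 and an adjusted p of 0.294 in edgeR and 0.0787 in DESeq2.

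Egr1, which is needed for lasting synaptic potentiation and memory, had 51.1, 49.8, 61.7 and 71.7 CPM with N+F, against 35.5, 33.4 and 57.2 CPM in controls. Controls 1 and 2 lay below all N+F libraries and control 3 lay among them. The log2 fold change was 0.48 ± 0.20, with an unadjusted p of 0.0332 and an edgeR adjusted p of 0.523. Egr2, known for its part in Schwann cell myelination, had low levels of 3.11 to 5.53 CPM with N+F and 1.29 to 3.79 CPM in controls. Its log2 fold change of 0.85 ± 0.40 had an edgeR adjusted p of 0.622.

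Arc is not a transcription factor but a protein of active synapses that promotes removal of AMPA receptors. It had 60.4, 47.2, 74.8 and 45.9 CPM with N+F, against 39.0, 26.6 and 72.9 CPM in controls. The groups overlapped, since control 3 was higher than 3 of the 4 N+F libraries. The log2 fold change of 0.31 ± 0.29 had an edgeR adjusted p of 0.850. Dusp1 encodes a nuclear phosphatase that switches off MAP kinases, a brake on the signal that induces it. Dusp1 had 13.8 to 18.7 CPM with N+F and 8.84 to 18.4 CPM in controls, with a log2 fold change of 0.38 ± 0.24 and an edgeR adjusted p of 0.738. Klf4, a Krüppel-like factor that restrains axon growth in neurons, had 1.28 to 2.81 CPM with N+F and 1.86 to 2.77 CPM in controls, with a log2 fold change of -0.04 ± 0.38 and an edgeR adjusted p of 0.989.

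**Figure D2:**
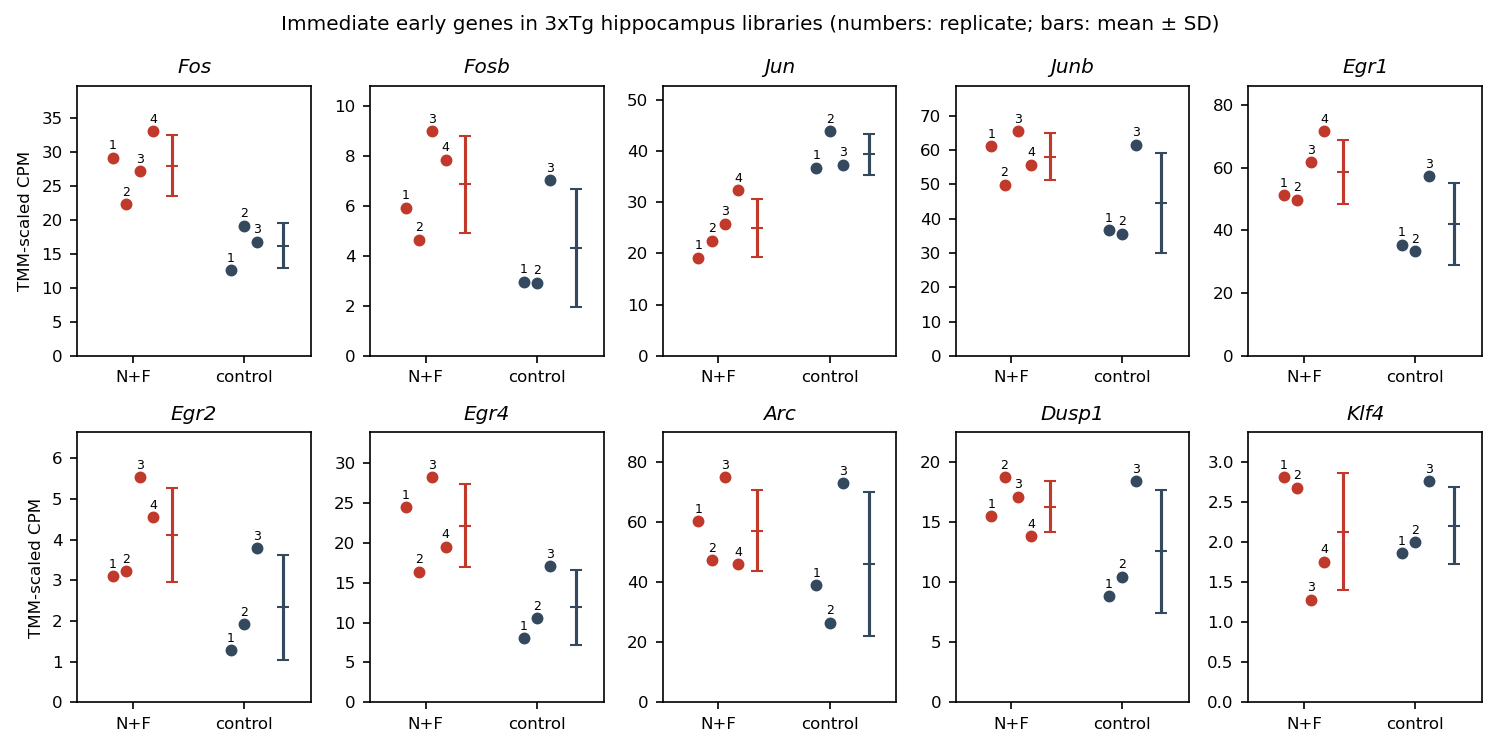
TMM-scaled CPM of the 10 members in each tissue library, N+F (4 libraries) left of control (3 libraries) in each panel, with the mean and SD. The groups do not overlap for Fos and Jun, and control 3 is the highest control for 8 members.

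One control library stood apart for most members. Control 3 was the highest of the 3 controls for 8 members, all but Fos and Jun, for which control 2 was the highest. For 5 of these 8 (Fosb, Junb, Egr2, Egr4 and Arc), N+F 3 was the highest N+F library. Without control 3, 9 of 10 members had an unadjusted p under 0.05 in edgeR, against 8.12% of all genes, and after adjustment 0 of 10 were called. The count at an unadjusted p under 0.05 was 3 without control 1 (8.70% of all genes) and 3 without control 2 (6.82%). Without N+F 1, 2, 3 and 4 it was 4 (8.21%), 5 (7.27%), 3 (6.90%) and 3 (10.1%). Leaving out the highest control raises a fold change by construction, so the count without control 3 is not a separate result. Without control 3 the log2 fold changes were 1.21 for Fosb, 0.68 for Junb, 0.76 for Egr1, 1.37 for Egr2, 1.26 for Egr4, 0.79 for Arc and 0.76 for Dusp1. The fold changes of Fos and Jun depended less on a single library: over all alternatives run they ranged from 0.63 to 0.93 for Fos and from -0.81 to -0.55 for Jun. Of the 10 members the widest range relative to its size was that of Arc, 0.03 to 0.79, apart from Klf4, which changed sign. The plot of fold changes shows the ranges with each library left out in turn, and not the other alternatives.

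**Figure D3:**
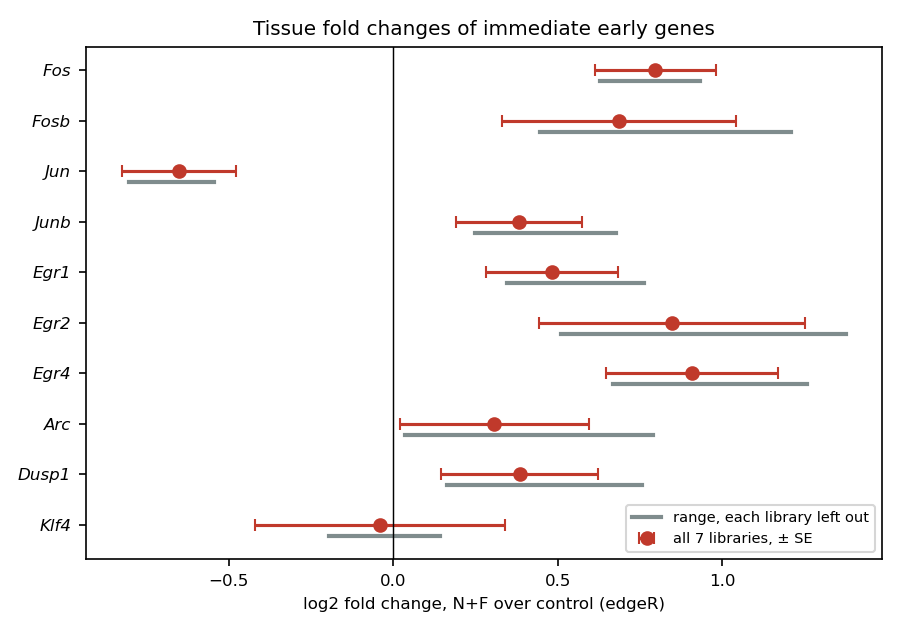
Log2 fold change (N+F over control, tissue) of each member with its SE, and the range with each library left out in turn. Fos at 0.80 and Jun at -0.65 stay on their side of 0 throughout, while Klf4 spans 0.

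Marker lists of other cells were summed in the same tissue libraries, and their part in the members' values was not tested. Summed striatal neuron markers, 11 genes of a region other than the hippocampus, came to 3026, 2567, 2774 and 1825 CPM in N+F libraries and to 1221, 547 and 2507 CPM in controls. Control 3 was again the highest control for this list, and it lay above N+F 4, so the groups overlapped. All 11 had positive fold changes and 0 were called by edgeR. Neocortical neuron markers summed to 384, 413, 508 and 325 CPM with N+F and to 281, 360 and 317 CPM in controls. Of these 7 genes, 6 had positive fold changes, 4 had an unadjusted p under 0.05 in edgeR, and 1, Fezf2, was called lower. Hippocampal excitatory neuron markers summed to 2552 to 4354 CPM with N+F and 3257 to 4347 CPM in controls, and 3 of 11 were called lower. Of these 11, 6 had an unadjusted p under 0.05 in edgeR, against 8.46% of all genes. Only 2 had positive log2 fold changes, and the list median was -0.63. The median marker of this list had 29.8, 45.7, 53.6 and 41.5 CPM in N+F libraries 1 to 4. In controls 1 to 3 it had 50.3, 54.6 and 74.0 CPM. General neuron markers summed to 4427 to 5712 CPM with N+F and 4837 to 5571 CPM in controls, with 0 called. Heat shock genes, which respond to protein stress, summed to 7813 to 10251 CPM with N+F and 7994 to 8299 CPM in controls. Choroid plexus markers ranged from 161 to 3933 CPM in sum with N+F and from 1129 to 2854 CPM in controls. None of the markers in these lists was at 0 in a tissue library. Inhibitory neuron markers summed to 895, 952, 824 and 824 CPM with N+F and 733, 626 and 695 CPM in controls, with 0 of 8 called and 5 at an unadjusted p under 0.05. Endothelial markers summed to 28.9 to 38.7 CPM with N+F and 41.9 to 59.2 CPM in controls, with 0 of 7 called and 4 at an unadjusted p under 0.05. Mural cell and fibroblast markers summed to 41.4, 53.1, 51.0 and 62.1 CPM with N+F and 62.1, 367 and 335 CPM in controls, with 1 of 8 called lower. The sums of these last 3 lists did not overlap between the groups, inhibitory neuron markers being higher and vascular and fibroblast markers lower with N+F, although N+F 4 and control 1 nearly met for the last. In bulk tissue, fewer cells of a type and less RNA per cell cannot be told apart.

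Other genes of the pathway were taken from 5 lists of 100 genes in all. For each list the shares over all genes were 0.110% called by edgeR and 8.46% with an unadjusted p under 0.05. Of 30 other immediate early genes, edgeR called 0 higher and 0 lower, 5 had an unadjusted p under 0.05, and 17 had positive log2 fold changes with a median of 0.05. Among them Nr4a1, an orphan nuclear receptor of the same family as Nurr1, had a log2 fold change of 1.01 ± 0.28 with an adjusted p of 0.279 in edgeR and 0.0373 in DESeq2. The log2 fold change of Zfp36, whose protein destabilises cytokine mRNAs, was -0.83, that of the kinase Sik1 was 0.76 and that of the stress factor Atf3 was 0.53. The median of this list lay nearer to that of all genes than the members' median of 0.43 did. Both lists were chosen with earlier results of these data known.

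Of 12 tested MAP kinase feedback genes 0 were called, 1 had an unadjusted p under 0.05 (8.46% of all genes), and the median was 0.08. Their largest log2 fold changes were -0.52 for Spry1, an inhibitor of receptor tyrosine kinase signalling, and 0.50 for the phosphatase Dusp14. Of 18 effector genes that neuronal activity induces later, 0 were called by edgeR and 5 had an unadjusted p under 0.05, with a median of 0.06. The small GTPase Arl4d had a log2 fold change of 1.10 with a DESeq2 adjusted p of 0.0282, and the synaptic pentraxin Nptx1 one of -0.72 with a DESeq2 adjusted p of 0.0168. The prohormone convertase Pcsk1 had 0.67 and the granule protein Scg2 0.51.

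Of 29 upstream transcription factors and kinases 0 were called, 0 had an unadjusted p under 0.05, and the median was -0.09. The largest values there were 0.33 for the kinase Camk4 and -0.31 for the coactivator Crebbp. Of 10 heat shock genes 0 were called and 0 had an unadjusted p under 0.05, with a median of -0.06 and a value of -0.35 for Hspb1. DESeq2 called Nr4a1, Arl4d and Nptx1, 3 genes over all 5 lists, against 0.948% of all genes.

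In the cultured glia each group was a single library, so the values have no replicate check and no test, and a gene was counted when it differed at least 2-fold in CPM + 1. The 2 regions differed in how the members stood with N+F. With N+F against the amyloid beta control, 2 of the 9 members measured were at least 2-fold higher in hippocampal glia (5.60% of all genes) and 8 of 9 in cortical glia (12.9% of all genes). In both regions these included Egr1 and Dusp1, 2 of 9 against 2.07% of all genes, and with the highest row of a symbol in place of the sum Fosb and Klf4 as well. At least 2-fold lower stood 0 members in either region, against 0.767% of genes in hippocampal and 15.1% in cortical glia, and 0.119% in both. Egr4 had 0 counts in all 4 libraries of this comparison and has no fold.

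Egr1 had 88.3 CPM with N+F and 26.5 CPM in the amyloid beta control in hippocampal glia, and 74.1 CPM with N+F and 10.8 CPM in the amyloid beta control in cortical glia. That was 3.34-fold and 6.85-fold higher with N+F. Dusp1 had 27.4 CPM with N+F and 10.6 CPM in the amyloid beta control in hippocampal glia, and 49.7 against 12.4 CPM in cortical glia, 2.58-fold and 4.01-fold higher. Klf4 had 30.2 against 14.8 CPM in hippocampal and 36.4 against 5.75 CPM in cortical glia. It was 2.04-fold and 6.33-fold higher in CPM, and in hippocampal glia stood just inside the 2-fold limit in CPM and just outside it in CPM + 1 (log2 ratio 0.98).

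With rows summed, the AP-1 genes stood between 0.726-fold and 1.19-fold of their control in hippocampal glia with N+F, and at least 2-fold above it in cortical glia. Fos had 23.1 CPM with N+F and 21.6 CPM in the amyloid beta control in hippocampal glia, a fold of 1.07 (log2 ratio 0.09, and -0.04 under TMM scaling), and 108 against 19.7 CPM in cortical glia, a fold of 5.46. Fosb had 4.91 against 4.14 CPM in hippocampal and 15.6 against 1.94 CPM in cortical glia, a fold of 1.19 and 8.05. The hippocampal value of Fosb depended on how repeated rows of a symbol were joined: with the highest row in place of the sum its log2 ratio was 2.32, against 0.20 with the sum. Fos reached 2-fold in cortical glia and not in hippocampal glia. Jun had 137 against 173 CPM in hippocampal and 399 against 183 CPM in cortical glia, a fold of 0.792 and 2.18. Junb had 159 against 219 CPM in hippocampal and 304 against 136 CPM in cortical glia, a fold of 0.726 and 2.24. Jun and Junb thus lay on opposite sides of their controls in the 2 regions. Arc was low throughout this comparison, with 3.61 against 2.13 CPM in hippocampal and 2.59 against 0.445 CPM in cortical glia. Egr2, with 0.840 to 2.65 CPM in these 4 libraries, reached 2-fold in CPM + 1 in neither region.

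Between the N+F libraries of the 2 regions, Fos, Fosb and Jun were at least 2-fold lower in hippocampal than in cortical glia, with log2 ratios of -2.17, -1.49 and -1.53. That was 3 members against 7.06% of all genes, and 0 were higher, against 17.3%. Between the amyloid beta controls, Egr1, Arc and Klf4 were at least 2-fold higher in hippocampal glia, 3 members against 4.17% of all genes, and 0 were lower, against 2.13%. Between the libraries labelled untreated 0 members differed 2-fold, against 3.17% of genes higher and 2.30% lower. The cortical N+F library stood apart in summed mural cell and fibroblast markers, which came to 1346 CPM in the hippocampal and 9117 CPM in the cortical N+F library, and to 1290 and 496 CPM in the amyloid beta controls. Its median oligodendrocyte marker had 33.8 CPM, against 0.346 CPM in the cortical amyloid beta control, where the hippocampal libraries had 2.83 CPM with N+F and 6.29 CPM without. The cortical N+F library also held less Nr4a2 and Foxa2 than the hippocampal N+F library. The part of these markers and transcripts in the regional differences was not tested. Over all genes the median log2 ratio of N+F over amyloid beta control was 0.12 in hippocampal and -0.16 in cortical glia, and that of hippocampal over cortical N+F was 0.33. Under TMM scaling these medians were -0.01, 0.01 and 0.04.

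**Figure D4:**
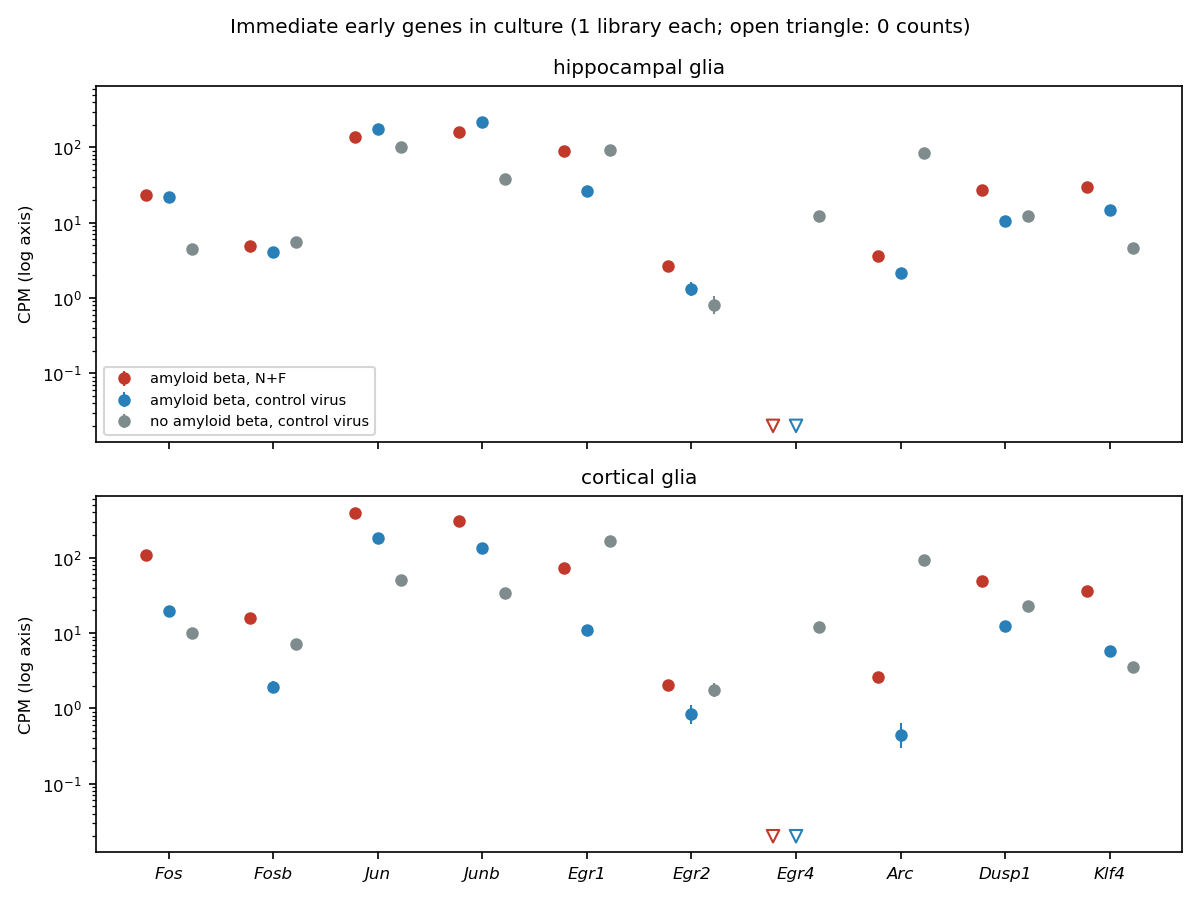
CPM of the 10 members in each of the 6 culture libraries on a log axis, with N+F, amyloid beta control and untreated in each region, 1 library each. Open triangles mark Egr4 at 0 counts, and Arc and Egr4 are highest in the libraries labelled untreated.

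The comparison of the amyloid beta control with the untreated library asked what amyloid beta did to glia without the factors. Members went both ways. Junb was at least 2-fold higher in both regions, 1 of 10 members against 16.6% of all genes, with 219 CPM in the amyloid beta control and 37.7 CPM untreated in hippocampal glia, and 136 against 34.3 CPM in cortical glia. At least 2-fold lower in both regions were Egr1, Egr4 and Arc, 3 of 10 against 21.5% of all genes. In hippocampal glia alone 3 members were higher (Fos, Junb and Klf4, against 21.0% of genes) and 3 lower (25.6%). In cortical glia 2 were higher (Jun and Junb, 19.8%) and 4 lower, the fourth being Fosb (25.4%).

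The lower members differed most for Arc and Egr4. Arc had 2.13 CPM in the amyloid beta control against 83.4 CPM untreated in hippocampal glia, and 0.445 against 92.9 CPM in cortical glia, 39.2-fold and 209-fold lower. Egr4 had 0 counts in both amyloid beta controls against 12.1 CPM in both untreated libraries, at least 302-fold and at least 245-fold lower when 3 counts per library are taken as the floor. Egr1 had 26.5 against 92.5 CPM in hippocampal and 10.8 against 167 CPM in cortical glia. Among the higher values, Fos had 21.6 CPM in the amyloid beta control against 4.50 CPM untreated in hippocampal glia, and 19.7 against 9.93 CPM in cortical glia. Jun had 173 against 100.3 CPM in hippocampal and 183 against 50.9 CPM in cortical glia. Klf4 had 14.8 against 4.68 CPM in hippocampal and 5.75 against 3.58 CPM in cortical glia.

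The libraries labelled untreated went against the label glia in their markers. The median neuron marker had 5.65 CPM in the amyloid beta control and 424 CPM in the untreated library of hippocampal glia, and 6.18 and 462 CPM in cortical glia. The median oligodendrocyte marker had 6.29 against 405 CPM in hippocampal and 0.346 against 317 CPM in cortical glia, and the median astrocyte marker 753 against 312 CPM and 1262 against 291 CPM. Amyloid beta and this difference in cells cannot be told apart in these libraries. Between N+F and amyloid beta control the median neuron marker stood at 5.53 against 5.65 CPM in hippocampal and 6.64 against 6.18 CPM in cortical glia.

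**Figure D5:**
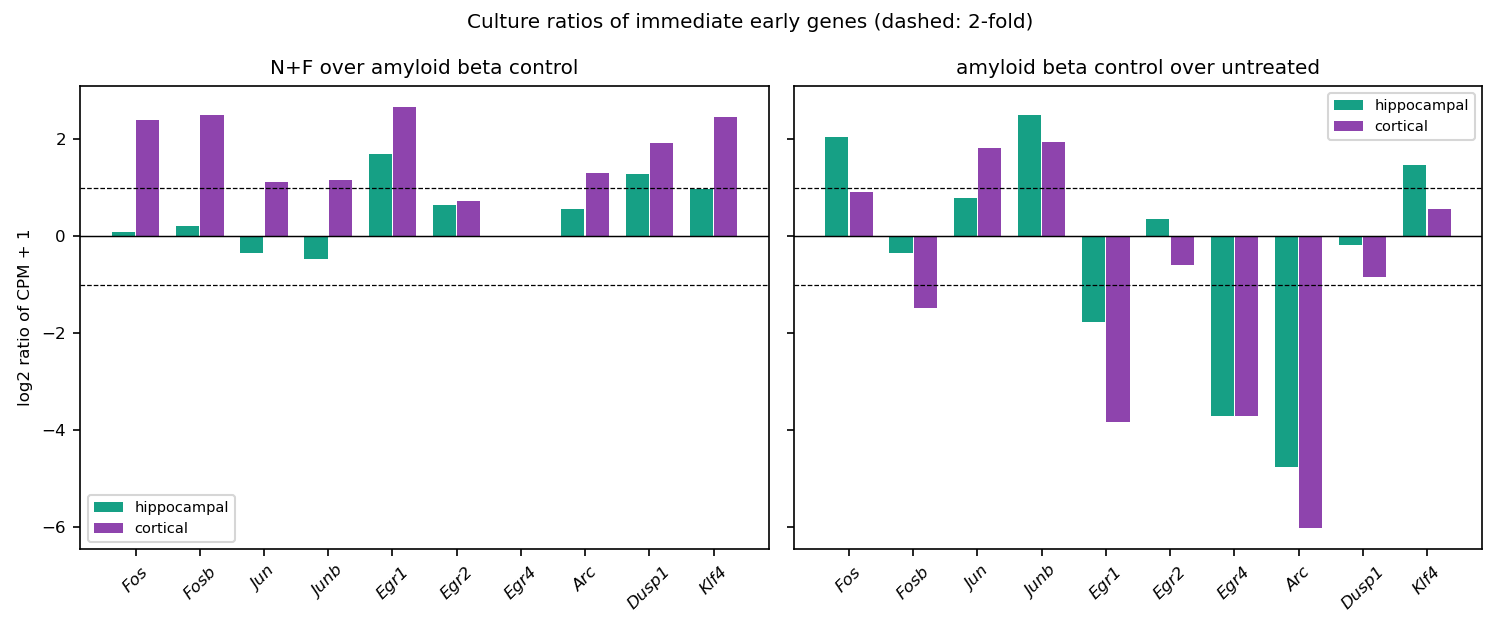
Log2 ratio of CPM + 1 of each member in hippocampal and cortical glia, for N+F over amyloid beta control and for amyloid beta control over untreated, with lines at 2-fold. With N+F the ratio of each of the 9 measured members is larger in cortical than in hippocampal glia, and with amyloid beta Arc, Egr1 and Egr4 lie below the line in both.

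Among the listed pathway genes in culture, 2 of 30 other immediate early genes were at least 2-fold higher with N+F than in the amyloid beta control in both regions and 0 were lower. They were Egr3, with log2 ratios of 1.70 in hippocampal and 1.09 in cortical glia, and the AP-1 subunit Fosl1, with 1.17 and 1.26. The medians of that list were 0.16 and 0.89. Over all genes 2.07% were higher in both regions and 0.119% lower, the shares to set beside each list here. Of 16 activity effectors, Inhba, a subunit of activin A, was higher at 1.65 and 3.00, and so was Pcsk1 at 2.65 and 1.27. Of 12 MAP kinase feedback genes, 29 upstream factors and kinases and 10 heat shock genes, 0 passed 2-fold in both regions in either direction.

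With amyloid beta against untreated, 15 of 30 other immediate early genes were at least 2-fold higher in both regions and 7 lower. Over all genes 16.6% were higher and 21.5% lower, the shares to set beside each list here. Of 10 neuron markers, 9 were also at least 2-fold lower in both regions, with median log2 ratios of -6.61 and -6.62. Amyloid beta and this difference in cells cannot be told apart in the values that follow. Cyr61, which encodes a matricellular protein, had log2 ratios of 6.54 in hippocampal and 6.98 in cortical glia, Ier3 had 5.27 and 4.15, and Egr3 had -5.73 and -6.89. Of 18 activity effectors 1 was higher and 11 lower, among them the neuronal exchange factor Rasgrp1 at -7.08 and -6.88. Of 29 upstream factors and kinases 1 was higher and 12 lower, led by Camk2a, the major kinase of excitatory synapses, at -7.41 and -8.18. Of 10 heat shock genes 2 were higher, Hspb1 at 3.78 and 4.07 and Bag3 at 3.49 and 3.87, and 1 was lower, Hsph1 at -1.56 and -1.43.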

How the data were processed

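Gene expression was measured by RNA sequencing in 13 libraries, 7 of hippocampus and 6 of cultured glia. Per the labels' protocols, libraries were made with a SMARTER mRNA-Seq kit from 1.3 µg of Trizol-extracted total RNA. The deposited values are raw counts per gene symbol; per the submitters' processing notes TopHat, HISAT2 and edgeR were used, with no role or version. The notes also name hg19, although the symbols are those of mouse, so the build and annotation behind the counts are not established, and strand use in counting was not stated. A symbol was repeated on 44 of 23282 tissue lines and 12238 of 36780 culture lines, and its lines were summed, so a read counted by the authors on more than 1 line enters the sum each time. No line lacked a name and 0 columns were left unused. Groups came from the sample titles.

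Tissue counts were tested with edgeR 4.0.16 (R 4.3.3; quasi-likelihood test, filterByExpr, TMM factors 0.895 to 1.11), with Benjamini-Hochberg adjustment over 15523 genes at a threshold of 0.05. All 10 members passed the filter. The SE of an edgeR log2 fold change was derived as its absolute value divided by the square root of the test's F statistic. The biological coefficient of variation was 0.206. DESeq2 1.42.0 was an alternative. The chi-square per gene between replicate libraries was 15.0 to 56.1, above sampling noise, so none was treated as a repeat of another. This check cannot show whether they came from separate animals, and each was counted as a sample as labelled. Culture values are CPM, compared as log2 ratios of CPM + 1. A gene was counted at 2-fold with at least 1 CPM in a library of each pair, and a count of 0 was set at a floor of 3 counts per library, which covers counting error only. The members, the lists and the markers were chosen with earlier results of these data known. From each list the text names genes past the test, otherwise some of the 4 of largest tissue fold change, and in culture some of the 3 of largest mean ratio among those past 2-fold in both regions; the 5 genes most like the members were taken by correlation. Alternatives were other scaling, tool, filter, row choice, replicate block, pseudocount and each library left out.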

Additional observations from a re-analysis of the deposited data

How the results depend on the processing

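Alternatives were run for the members' values, their counts of calls in tissue and at 2-fold in culture, and the tissue pathway calls; the counts of groups that do not overlap and the culture pathway lists have none. DESeq2 called 1 member (Fos, adjusted p = 0.0239) and 3 pathway genes, where edgeR called 0 and 0. With each library left out in turn, 0 to 0 members and 0 to 1 pathway genes were called, the 1 without control 3. Over all genes edgeR called 17 at the chosen settings, 136 genes passed in DESeq2, 29 without the count filter, 29, 3 and 1 without controls 1, 2 and 3, and 0 without any 1 N+F library. Klf4 changed sign, to 0.017 with the replicate block and over -0.20 to 0.14 with libraries left out. The replicate block called 0 members and 0 of all genes after adjustment. At an unadjusted p under 0.05 it had 8 members and 1558 of 15523 genes. The chosen settings had 4 members and 1313 genes there. Same-numbered tissue libraries deviated little together (r of -0.0013, -0.083 and 0.125 over genes for numbers 1, 2 and 3). Pairs with different numbers had r of -0.176 to 0.119, so the value for number 3 was the highest. The numbers were not taken as pairs.

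In culture, the member count at 2-fold higher with N+F was 4 in hippocampal glia and 4 in both regions (Fosb, Egr1, Dusp1 and Klf4) with the highest row of a symbol in place of the sum, and 3 in each (Klf4 added) with CPM + 0.5. In cortical glia it was 7, without Arc, with CPM + 5 and with the highest row. For amyloid beta control against untreated, 4 were lower in both regions (Fosb added) with the highest row, and 3 in cortical glia (Fosb lost) with CPM + 5. Between regions, the count lower in hippocampal glia with N+F was 5 under TMM scaling, which added Junb and Dusp1, the count higher in the amyloid beta control was 0 with CPM + 5 and 2 (Arc lost) with the highest row, and the count lower in the untreated library was 1 (Fos) with CPM + 0.5 and with the highest row. The cause was not tested. Low levels limit Egr2, Klf4 and Fosb in tissue, and Arc and Egr2 in culture with amyloid beta.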

Other observations

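The genes whose tissue levels most resembled the members' mean standardised level over 7 libraries, among 11615 genes with at least 5 CPM, were Wfs1 with a Pearson r of 0.996, Nkain4 with 0.984, Syt5 with 0.969, Ano2 with 0.969 and Zbtb10 with 0.967. These are given as a description, the best of a search over many genes, and the 7 libraries differ in depth and group. Wfs1, an endoplasmic reticulum protein found in CA1 pyramidal cells and also in striatum, had 85.9, 78.4, 95.1 and 92.9 CPM in N+F libraries and 50.3, 54.6 and 89.5 CPM in controls. It had the same high control 3 as the members, and its log2 fold change of 0.44 had an edgeR adjusted p of 0.535. Wfs1 is also 1 of the 11 hippocampal excitatory neuron markers. Of these, 2 had positive log2 fold changes, and the list median was -0.63.

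In the culture table, repeated rows of 1 symbol held different values for some members. The 2 rows of Fosb held 79 and 218 counts in the hippocampal N+F library, 309 and 0 in the hippocampal amyloid beta control and 106 and 268 in the untreated one. The first row alone was therefore lower with N+F than in the amyloid beta control, and the second row was higher. In cortical glia both rows were higher with N+F, with 517 and 707 counts against 64 and 54. The first row of Arc held 85 counts in the cortical N+F library and 0 in the cortical amyloid beta control, and the second 118 and 27. What the rows stand for was not tested.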
